A study of Mus musculus with 13 samples.

Results

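Genes that define endothelial cells and their junctions were followed in mice that lack heme oxygenase-2. The set is a list of gene names with no measured value in its rule, drawn up with earlier results of these data known. It comprised Cdh5, Pecam1, Tek, Tie1, Eng, Erg, Emcn, Cldn5, Esam and Ramp2, which are 10 of the 36109 genes to which the deposited transcript tables could be summed. All 10 passed the filter on low counts in aortic endothelial cells (ECs) and in hearts. RNA-seq had been made from Hmox2-/- mice and from littermate wild-type controls (Hmox2+/+), all kept in room air with no further treatment. The libraries comprised 3 EC samples and 4 heart samples from Hmox2+/+ mice, and 3 EC samples and 3 heart samples from Hmox2-/- mice. EC RNA was obtained by flushing the aortic lumen with lysis reagent, so no cell sort or culture stood between the vessel and the RNA, whereas hearts were powdered whole and their RNA holds every cell type of the organ. The deletion is germline and carried by every cell of the animal. The study describes the sequenced mice as young. Their sex is not given in the sources used here, and the labels do not say which EC sample and which heart came from the same mouse. P-values therefore measure the spread between these samples only.

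Endothelial cells line all vessels and are held together by adherens junctions, built on VE-cadherin, and by tight junctions, built on claudins. Both junctions sit within a ring of immunoglobulin-like adhesion molecules. The same cells carry receptors that keep the resting vessel quiet. Among them are the angiopoietin receptor TIE2, its relative TIE1, the BMP9 co-receptor endoglin and the adrenomedullin receptor. The identity of these cells is maintained by ETS-family transcription factors such as ERG. The arterial, venous, capillary and lymphatic beds differ in how much of each gene they use.

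Hmox2 itself followed the labels. It was at 63.9 to 76.2 CPM (counts relative to the library total, scaled between libraries of a tissue by trimmed means) in Hmox2+/+ ECs and at 12.6 to 14.7 in Hmox2-/- ECs, while the hearts had 37.3 to 42.5 CPM (Hmox2+/+) and 7.53 to 8.90 CPM (Hmox2-/-). Estimated counts summed to between 26067147 and 31619776 per library, except in heart Hmox2+/+ replicate 1, which had 7268626, so that its values for Ramp2 (65 counts), Cldn5 (118) and Erg (147) carry more counting error. The Y-linked gene Ddx3y was at 0.977 and 0.967 CPM in Hmox2-/- EC replicates 2 and 3 and at 40.0 to 91.5 in the other 11 libraries, so genotype and Ddx3y class are partly confounded in ECs. The share of counts from the mitochondrial genome was 19.4% to 30.9% in EC libraries, 37.6% to 44.3% in hearts of Hmox2+/+ mice and 22.5% to 27.2% in those of Hmox2-/- mice.

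Markers of other cells were present in the lumen preparations and moved with genotype. The smooth muscle gene Acta2 was at a mean of 2296 CPM in Hmox2+/+ ECs and 1005 in Hmox2-/- ECs, and the brown fat gene Ucp1 was at 1862 and 2196. The sum of 10 smooth muscle markers was 3647 to 7230 CPM in Hmox2+/+ ECs against 1231 to 3981 in Hmox2-/- ECs, with 4 of 10 called lower and 0 higher (0 higher also at an unadjusted p under 0.05 and with DESeq2). The sum of 8 fibroblast markers was 3121 to 5588 against 6844 to 7526 CPM, with 3 higher and 1 lower. Cardiomyocyte markers summed to 134 to 515 CPM in Hmox2+/+ ECs and 12.3 to 15.2 in Hmox2-/- ECs, and mesothelial markers to 40.4 to 181 and 6.27 to 6.93. The 7 brown fat markers summed to 4079 to 6934 CPM in Hmox2+/+ ECs and 3794 to 5284 in Hmox2-/- ECs. Of these, 0 were called higher and 1 lower (0 and 4 at an unadjusted p under 0.05, edgeR, and 0 and 3 with DESeq2). Their median log2 fold change was -0.55, opposite in direction to the means of Ucp1. Since these are bulk samples, a different share of endothelial cells and a different RNA level per endothelial cell cannot be told apart in anything that follows.

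The genes of the set were well expressed in the EC preparations. On the TPM scale, which divides counts by transcript length before setting them against the library total and so allows levels of different genes to be compared, Pecam1 led in Hmox2+/+ ECs at 560 ± 193 TPM (SD, n = 3), followed by Ramp2 at 222 ± 77.3, and these stood apart from each other and from the rest. The remaining 8 ran from Esam at 83.7 through Cdh5 (72.3), Eng (71.6), Tek (58.9), Cldn5 (53.9), Tie1 (53.0) and Emcn (47.7) to Erg at 36.4 TPM, and each neighbouring pair among them overlapped. In Hmox2-/- ECs the order was Pecam1 (970 ± 38.2 TPM), Ramp2 (374 ± 33.6), Esam (135 ± 10.3), Tie1 (104), Tek (94.4), Cldn5 (87.3), Cdh5 (83.1), Eng (77.0), Erg (39.3) and Emcn (33.4). There the first 3 stood apart from each other and from the next, Tie1 to Cdh5 overlapped, and Eng lay below Cdh5 and above Erg without overlap. Hearts gave another order: Eng (29.9 TPM), Cdh5 (29.7) and Pecam1 (26.7) led in Hmox2+/+ hearts and Pecam1 (45.1), Eng (44.9) and Cdh5 (35.7) in Hmox2-/- hearts, with Erg last in each at 7.39 and 7.15. Pecam1 alone made up 44.3% and 48.6% of the summed TPM of the 10 genes in Hmox2+/+ and Hmox2-/- ECs, against 15.3% and 17.0% in hearts.

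Set against whole hearts, most of the 10 were enriched in the EC preparations. In a fit of all 13 libraries (edgeR's quasi-likelihood test, called where the p, adjusted by Benjamini-Hochberg over every gene tested, was no more than 0.05), 8 of 10 were higher in ECs than in hearts in Hmox2+/+ mice, where 33.7% of all genes tested were, and 8 of 10 in Hmox2-/- mice, where 36.7% of all genes were. The log2 difference was widest for Pecam1 (3.40 in Hmox2+/+ and 3.77 in Hmox2-/- mice) and Ramp2 (2.79 and 2.96), followed by Tek (1.80 and 2.42) and Cldn5 (1.59 and 2.15). The others that passed in each genotype were Erg (1.30 and 1.99), Esam (1.12 and 1.49) and Tie1 (0.98 and 1.97). Eng did not pass in either genotype (0.29, adjusted p = 0.122, and 0.09, adjusted p = 0.664, edgeR), but passed in Hmox2+/+ mice without EC Hmox2+/+ replicate 2 (0.44, adjusted p = 0.0235) and with upper-quartile scaling (0.44, adjusted p = 0.0285). Cdh5 passed in Hmox2-/- mice (0.55, adjusted p = 0.00267, edgeR) and was close to the threshold in Hmox2+/+ mice (0.30, adjusted p = 0.0556, edgeR). There it passed with DESeq2 (0.0154), with upper-quartile scaling (0.00849), without mitochondrially encoded genes (0.0357) and without any 1 of EC Hmox2+/+ replicates 1 and 2, heart Hmox2+/+ replicate 2 and heart Hmox2-/- replicates 2 and 3 (0.0303 to 0.0445). Emcn passed in Hmox2+/+ mice (0.69, adjusted p = 0.0252) and not in Hmox2-/- mice (-0.43, adjusted p = 0.158). In Hmox2+/+ mice Emcn's difference was 0.25 (adjusted p = 0.300, edgeR) without EC Hmox2+/+ replicate 3 and 0.65 (adjusted p = 0.0542) without heart Hmox2+/+ replicate 4. In Hmox2-/- mice it passed as lower without EC Hmox2+/+ replicate 2 (-0.44, adjusted p = 0.0397) or 3 (-0.44, adjusted p = 0.0485), which enter through the shared estimate of spread.

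The first question was whether loss of HMOX2 went with a change of these genes in ECs. In Hmox2-/- ECs 6 of the 10 rose, Tie1, Ramp2, Pecam1, Tek, Esam and Cldn5, by 1.66-fold to 2.02-fold, and 0 fell (0 also at an unadjusted p under 0.05, edgeR, and with DESeq2, by which 6 rose). Of all 15301 genes tested, 10% were called higher and 8.06% lower. The median log2 fold change of the 10 genes was 0.73, against -0.02 over all genes tested. The same 6 genes were higher in every Hmox2-/- library than in every Hmox2+/+ library, which was so for 22% of all genes, while 18.7% of all genes were lower in every one and 0 of the 10 were. Only Tie1 also passed a log2 fold change of 1, as 5.39% of all genes did in that direction.

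**Figure D1:**
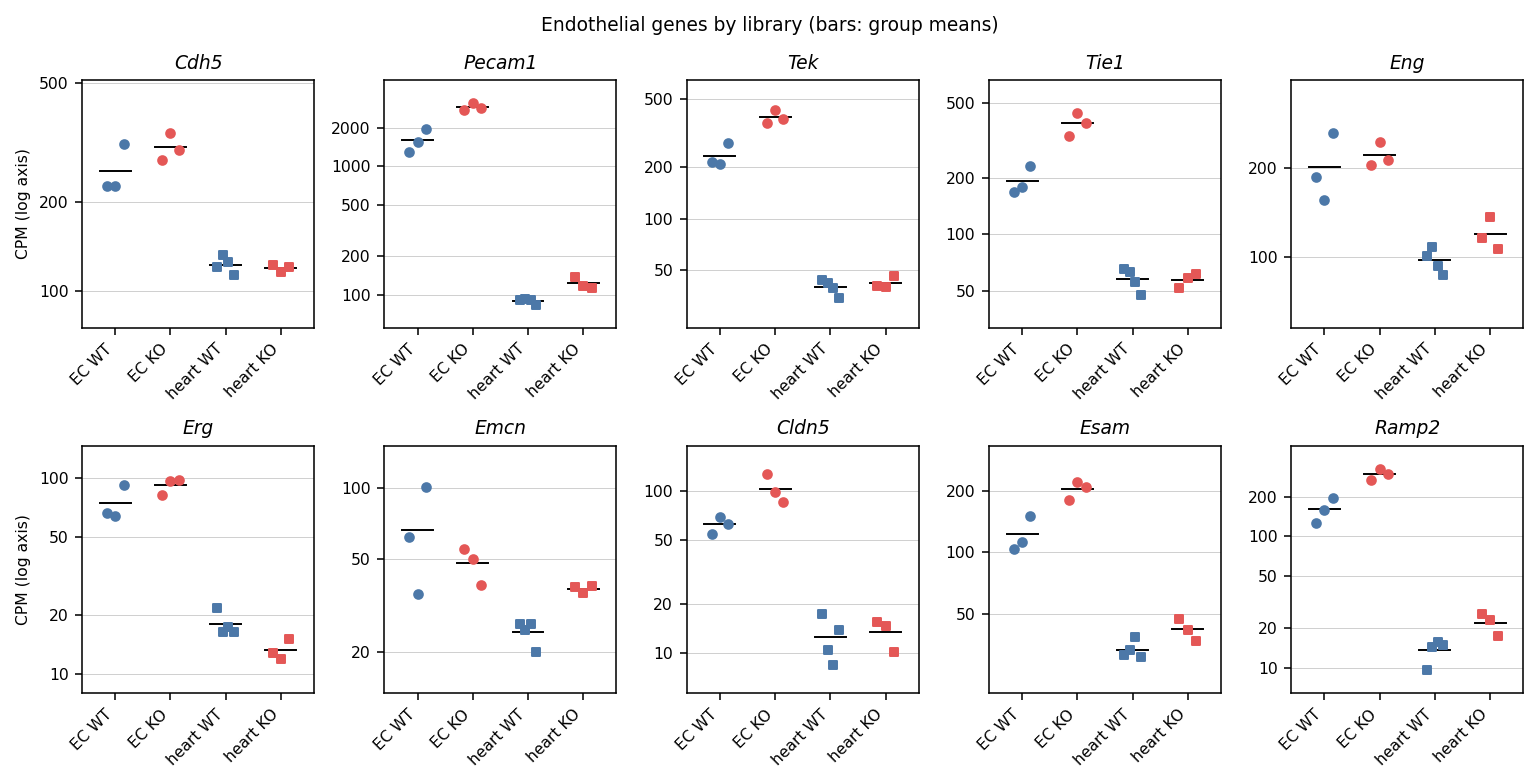
CPM of the 10 genes on log axes, 1 point per library, for ECs and hearts of Hmox2+/+ (WT) and Hmox2-/- (KO) mice, with the mean of each group as a bar. In ECs the points of Pecam1, Tek, Tie1, Cldn5, Esam and Ramp2 separate by genotype, and in hearts those of Pecam1, Emcn, Ramp2 and, in the other direction, Erg.

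Among the junction genes, Pecam1, Esam and Cldn5 passed the test in ECs and Cdh5 did not. Cdh5 (ENSMUSG00000031871, GRCm39 chr8:104828231-104871143, plus strand) encodes VE-cadherin. It was at 225, 226 and 312 CPM in the 3 Hmox2+/+ EC libraries and at 276, 340 and 297 in the 3 Hmox2-/- EC libraries. The groups overlapped, because Hmox2+/+ replicate 3 lay above 2 of the Hmox2-/- libraries, and the log2 fold change of 0.26 ± 0.17 (SE) did not pass (adjusted p = 0.322, edgeR). Pecam1 (ENSMUSG00000020717, chr11:106543689-106641454, minus strand) encodes the immunoglobulin-like adhesion molecule CD31 of endothelial borders, platelets and leukocytes. It was at 1282, 1534 and 1960 CPM in Hmox2+/+ ECs and at 2722, 3108 and 2844 in Hmox2-/- ECs. Every Hmox2-/- library was above every Hmox2+/+ library, and Pecam1 rose 1.82-fold (log2 0.86 ± 0.23, adjusted p = 0.0416, edgeR). Esam (ENSMUSG00000001946, chr9:37439344-37449615, plus strand), an immunoglobulin-like molecule of endothelial tight junctions that platelets also carry, was at 105, 113 and 152 CPM against 180, 222 and 210. It rose 1.66-fold with no overlap (log2 0.73 ± 0.17, adjusted p = 0.0284). Cldn5 (ENSMUSG00000041378, chr16:18595597-18597012, plus strand) encodes claudin-5, the main strand-forming protein of endothelial tight junctions, and lies 14 Mb from Hmox2 on the same chromosome. It was at 54.3, 69.3 and 62.8 CPM in Hmox2+/+ ECs and at 126, 98.5 and 84.7 in Hmox2-/- ECs, a 1.66-fold rise without overlap (log2 0.73 ± 0.17, adjusted p = 0.0281).

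The receptors divided in a similar way. Tie1 (ENSMUSG00000033191, chr4:118328385-118347261, minus strand), the relative of TIE2 that modulates its signalling, was at 167, 177 and 231 CPM in Hmox2+/+ ECs and at 333, 438 and 391 in Hmox2-/- ECs. It had the largest rise of the 10 genes, 2.02-fold (log2 1.01 ± 0.18, adjusted p = 0.0123, edgeR), and the lowest Hmox2-/- library was well above the highest Hmox2+/+ library. Tek (ENSMUSG00000006386, chr4:94627291-94763224, plus strand), which encodes the angiopoietin receptor TIE2, was at 214, 210 and 277 CPM against 362, 431 and 382. It rose 1.68-fold (log2 0.74 ± 0.16, adjusted p = 0.0224, edgeR), again without overlap. Ramp2 (ENSMUSG00000001240, chr11:101136358-101150419, plus strand) encodes the accessory protein that turns the receptor CALCRL into an adrenomedullin receptor. Its level of 127, 160 and 198 CPM in Hmox2+/+ ECs compared with 268, 326 and 300 in Hmox2-/- ECs, a 1.85-fold rise (log2 0.88 ± 0.18, adjusted p = 0.0195). Part of the Ramp2 annotation overlaps Vps25 on the same strand and 30.6% of the 31-base words of its transcripts occur in other genes, but the call was the same when the transcripts that share words with Vps25 were left out. Eng (ENSMUSG00000026814, chr2:32535543-32574661, plus strand), whose product endoglin presents BMP9 to its receptor and whose gene overlaps Fpgs on the opposite strand, was at 186, 156 and 262 CPM against 205, 243 and 212. These groups overlapped, and the log2 fold change was 0.13 ± 0.20 (adjusted p = 0.674).

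The transcription factor and the surface mucin did not pass in ECs. Erg (ENSMUSG00000040732, chr16:95160028-95387452, minus strand, 90.6 Mb from Hmox2) was at 66.5, 64.0 and 91.6 CPM in Hmox2+/+ ECs and at 81.8, 95.9 and 97.0 in Hmox2-/- ECs. Hmox2+/+ replicate 3 lay within the Hmox2-/- range, and the log2 fold change was 0.31 ± 0.16 (adjusted p = 0.216, edgeR). It passed without that library (0.49, adjusted p = 0.0331, edgeR). Emcn (ENSMUSG00000054690, chr3:137046794-137138999, plus strand) encodes endomucin, a sialomucin typical of capillary and venous endothelium. It was the most variable of the 10 in Hmox2+/+ ECs, at 61.8, 35.3 and 101 CPM, a coefficient of variation of 50.0% against 12.1% to 27.2% for the other 9. In Hmox2-/- ECs it was at 55.0, 49.7 and 38.5 CPM, and the log2 fold change of -0.47 ± 0.34 did not pass (adjusted p = 0.363). It was -0.03 without Hmox2+/+ replicate 3 and -0.77 without Hmox2+/+ replicate 2, the ends of its range over the alternatives, and passed in none of them.

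The EC calls depended on which libraries were fitted. With Hmox2+/+ replicate 1, 2 or 3 left out the number of genes called higher was 1, 2 and 7, and without Hmox2-/- replicate 1, 2 or 3 it was 4, 1 and 1. With a term for Ddx3y class, 0 genes of the set passed (4 higher at an unadjusted p under 0.05, edgeR, and 2 with DESeq2), while 138 genes were called higher and 70 lower of all 15301. The 4 Ddx3y-positive EC libraries alone hold only 1 Hmox2-/- library, so that fit gives effect sizes and no count. There the log2 fold changes of the 6 genes ran from 0.56 (Esam) to 1.02 (Cldn5). The log2 fold changes of the 6 genes kept their direction in each, with Tie1 at 0.80 (adjusted p = 0.132, edgeR) and Cldn5 at 1.02 (adjusted p = 0.0576, edgeR) under the term. Hmox2-/- replicate 1 was the one Ddx3y-positive Hmox2-/- EC library. It lay above all 3 Hmox2+/+ libraries for each of the 6 called genes, as their lack of overlap already required. That library also had a summed smooth muscle TPM of 2362, within the 2092 to 3335 of the Hmox2+/+ libraries, against 633 and 696 in the other Hmox2-/- libraries. Its fibroblast sum of 3583 TPM was the highest of the 6, above 1242 to 2352 TPM in Hmox2+/+ ECs. The part of these markers in the rise of the 6 genes was not tested.

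**Figure D2:**
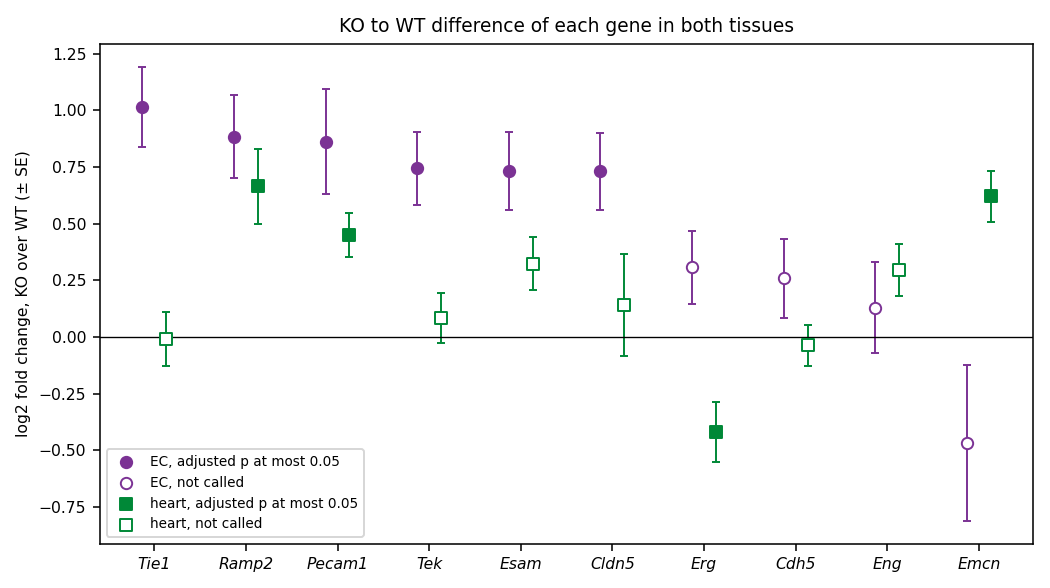
Log2 fold change of each gene in Hmox2-/- against Hmox2+/+ samples, with its standard error as a bar, for ECs and hearts, and filled where the adjusted p was at most 0.05. Tie1 has the highest EC value at 1.01 and lies at -0.01 in hearts, while Emcn lies at -0.47 in ECs (-0.03 without Hmox2+/+ replicate 3) and 0.62 in hearts.

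Next, the genes were scaled to VE-cadherin, as a description chosen after the data were seen, to ask whether the set moved in step within each library. The Tie1 to Cdh5 ratio of TPM was 0.722 to 0.758 in the 3 Hmox2+/+ EC libraries and 1.18 to 1.30 in the 3 Hmox2-/- EC libraries, with a gap between the groups. Pecam1 went from a mean of 7.69 to 11.7 times the TPM of Cdh5, Ramp2 from 3.05 to 4.49, Esam from 1.15 to 1.63 and Tek from 0.820 to 1.14, all without overlap. So 5 of the other 9 genes were higher relative to Cdh5 in every Hmox2-/- EC library, where 9.38% of all genes were, and none was lower in every one, where 23.5% of all genes were. The ratios of Cldn5 (0.763 and 1.05), Eng (0.984 and 0.926), Erg (0.506 and 0.472) and Emcn (0.641 and 0.403) overlapped between genotypes. In hearts 4 ratios were higher in every Hmox2-/- library, those of Pecam1 (0.904 to 1.27), Eng (1.00 to 1.26), Emcn (0.493 to 0.839) and Ramp2 (0.536 to 0.926), against 20% of all genes. No ratio was lower in every Hmox2-/- heart, as 13.3% of all genes were.

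**Figure D3:**
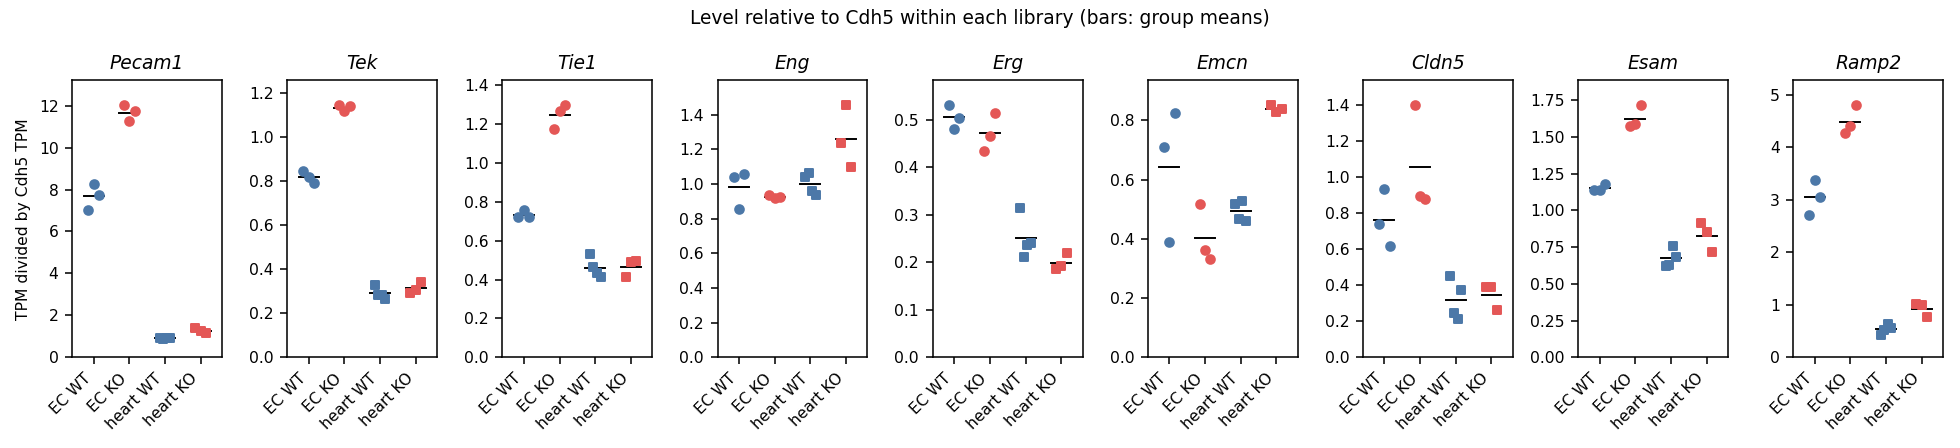
Ratio of the TPM of each gene to that of Cdh5 in the same library, 1 point per library, on linear axes from 0, for ECs and hearts by genotype (WT, Hmox2+/+, and KO, Hmox2-/-), with group means as bars. The Tie1 ratio in ECs lies between 0.722 and 0.758 in Hmox2+/+ libraries and between 1.18 and 1.30 in Hmox2-/- libraries, and in hearts its groups overlap.

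Hearts were examined with the same test, fitted apart from the ECs. There 3 of the 10 genes rose, Ramp2, Emcn and Pecam1, by 1.37-fold to 1.58-fold, and Erg fell. Of all 13816 genes tested in hearts, 17.2% were called higher and 16.2% lower, so the share of the set called in either direction was near that of all genes. The same 3 genes were higher in every Hmox2-/- heart than in every Hmox2+/+ heart (20.6% of all genes were) and Erg was lower in every one (19.8% were). The median log2 fold change of the 10 genes was 0.22, and that of all genes was -0.01. The summed TPM of the set was 155 to 205 in the Hmox2+/+ group and 264 to 266 in the Hmox2-/- group, a ratio of means of 1.51, but it was 0.941 once mitochondrially encoded genes were taken out of the TPM, so a direction for the sum depended on the scaling.

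The gene with the clearest change in hearts was Emcn, which did not pass in ECs. Emcn was at 26.3, 24.8, 26.4 and 20.1 CPM in the 4 Hmox2+/+ hearts and at 37.9, 35.7 and 38.4 in the 3 Hmox2-/- hearts. Replicates were close in each group, and Emcn rose 1.54-fold (log2 0.62 ± 0.11, adjusted p = 0.00269, edgeR). Pecam1 was at 91.9, 93.4, 91.2 and 83.3 CPM against 137, 118 and 114. All Hmox2-/- hearts were above all Hmox2+/+ hearts, a 1.37-fold rise (log2 0.45 ± 0.10, adjusted p = 0.00588, edgeR). Ramp2 was low in hearts, at 9.67, 14.3, 15.7 and 15 CPM against 25.6, 23.2 and 17.6, and rose 1.58-fold (log2 0.66 ± 0.16, adjusted p = 0.0112). Erg was at 21.9, 16.4, 17.5 and 16.5 CPM against 12.9, 12 and 15.1. The lowest Hmox2+/+ heart was close to the highest Hmox2-/- heart, and Erg fell by 0.42 ± 0.13 on the log2 scale (adjusted p = 0.0308, edgeR). That call was lost without Hmox2+/+ heart replicate 1 (adjusted p = 0.0655) or 3 (0.0621) and without Hmox2-/- heart replicate 1 (0.0690) or 2 (0.128), with log2 values from -0.43 to -0.34, while Emcn, Pecam1 and Ramp2 passed with any 1 heart left out.

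The other junction genes and receptors did not pass in hearts. Cdh5 was at 113 to 133 CPM against 116 to 123 (log2 -0.04 ± 0.09, adjusted p = 0.785, edgeR). Esam was at 30.8 to 38.5 against 37.1 to 47.3 CPM, close to the threshold (log2 0.32 ± 0.12, adjusted p = 0.0508), and passed without Hmox2+/+ heart replicate 3 (0.0369) or Hmox2-/- heart replicate 3 (0.0149). Eng, at 87.1 to 109 against 107 to 137 CPM (log2 0.30 ± 0.11, adjusted p = 0.0645), passed without Hmox2+/+ heart replicate 2 (0.0478) or Hmox2-/- heart replicate 3 (0.0200). Cldn5 was at 8.53 to 17.5 CPM against 10.2 to 15.5, with overlapping groups (log2 0.14 ± 0.22, adjusted p = 0.654). The 2 TIE receptor genes, which had risen in ECs, were at 34.4 to 44.0 against 40.0 to 46.2 CPM for Tek (log2 0.08 ± 0.11, adjusted p = 0.575) and at 47.7 to 65.4 against 51.9 to 61.5 CPM for Tie1 (log2 -0.01 ± 0.12, adjusted p = 0.965).

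Whether the response differed between the tissues was tested directly, as the heart log2 fold change minus the EC log2 fold change in the fit of all 13 libraries. The difference was below 0 for Tie1 (-0.98 ± 0.22, adjusted p = 0.00513), Erg (-0.68 ± 0.21, adjusted p = 0.0272) and Tek (-0.62 ± 0.19, adjusted p = 0.0257), which was so for 12.7% of all 15938 genes. It was above 0 for Emcn (1.13 ± 0.37, adjusted p = 0.0336), as for 16.2% of all genes. Pecam1 (-0.37, adjusted p = 0.225) and Ramp2 (-0.17, adjusted p = 0.647), which rose in both tissues, did not differ beyond their error, nor did Cldn5 (-0.55, adjusted p = 0.202), Esam (-0.37, adjusted p = 0.195), Cdh5 (-0.25, adjusted p = 0.336) or Eng (0.21, adjusted p = 0.538). Hmox2-/- EC replicates 2 and 3, low in Ddx3y, enter this difference too, and no Ddx3y term was fitted for it. Tie1 passed with any 1 of the 13 libraries left out, and the other 3 called genes did not. Tek was lost without EC Hmox2+/+ replicate 1 or 2, EC Hmox2-/- replicate 2 or heart Hmox2-/- replicate 1 or 2 (-0.58 to -0.54). Erg was lost without any of these or EC Hmox2-/- replicate 3 (-0.65 to -0.59). Emcn was lost without EC Hmox2+/+ replicate 3 (0.69), EC Hmox2-/- replicate 2 or 3, heart Hmox2+/+ replicate 4 or any 1 of the Hmox2-/- hearts (0.99 to 1.17). Without EC Hmox2+/+ replicate 3, Pecam1 and Esam passed too, each at -0.54.

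The annotated transcripts were then tested one by one. Of 41 tested transcripts of the 10 genes, 6 were called higher and none lower in Hmox2-/- ECs (14 higher and 0 lower at an unadjusted p under 0.05, edgeR, and 13 higher and 0 lower with DESeq2), against 2.97% and 2.77% of all 37705 transcripts. For Tek the rise was in Tek-203, from a mean of 121 to 262 CPM (log2 1.11, adjusted p = 0.0190, edgeR). Tek-201 was at 97.5 and 102 CPM (log2 0.07, adjusted p = 0.843, edgeR), and the share of Tek TPM held by Tek-203 went from 49.2% to 64.2% in ECs. For Pecam1 the transcript called was Pecam1-204, from 355 to 845 CPM (log2 1.25, adjusted p = 0.0196). Its other abundant transcripts, Pecam1-202 (625 and 1061 CPM, log2 0.77, adjusted p = 0.0684) and Pecam1-203 (504 and 846 CPM, log2 0.75, adjusted p = 0.0968), did not pass. All 3 Tie1 transcripts were called: the main one, Tie1-201, went from 176 to 333 CPM (log2 0.92, adjusted p = 0.0342), Tie1-203 from 13.3 to 44.0 (log2 1.72, adjusted p = 0.0271) and Tie1-202 from 2.82 to 11.7 (log2 2.05, adjusted p = 0.0346). Ramp2-204 went from 93.6 to 199 CPM (log2 1.09, adjusted p = 0.0333), and its share of Ramp2 TPM from 45.4% to 55.8%, while that of the retained-intron form Ramp2-205 went from 42.2% to 30.1%. Within Erg, which did not pass as a gene, the mean share of Erg-202 was 18.8% and 4.97% and that of Erg-207 was 36.1% and 48.1% in the 2 genotypes.

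In hearts 34 transcripts were tested, of which 2 were called higher and none lower (7 higher and 3 lower at an unadjusted p under 0.05, edgeR, and 5 higher and 3 lower with DESeq2), against 3.53% and 2.57% of all 31575. These were Emcn-201, from 12.9 to 23.1 CPM (log2 0.85, adjusted p = 0.0148, edgeR), and Pecam1-202, from 27.1 to 41.8 (log2 0.63, adjusted p = 0.0453, edgeR). The Tek-203 share was 55.5% and 48.7% in Hmox2+/+ and Hmox2-/- hearts, and the Ramp2-205 share 38.3% and 49.8%. Cdh5 was almost wholly 1 transcript, and Cldn5 had only 1. Estimated counts of transcripts that share most of their sequence are less certain than those of genes.

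**Figure D4:**
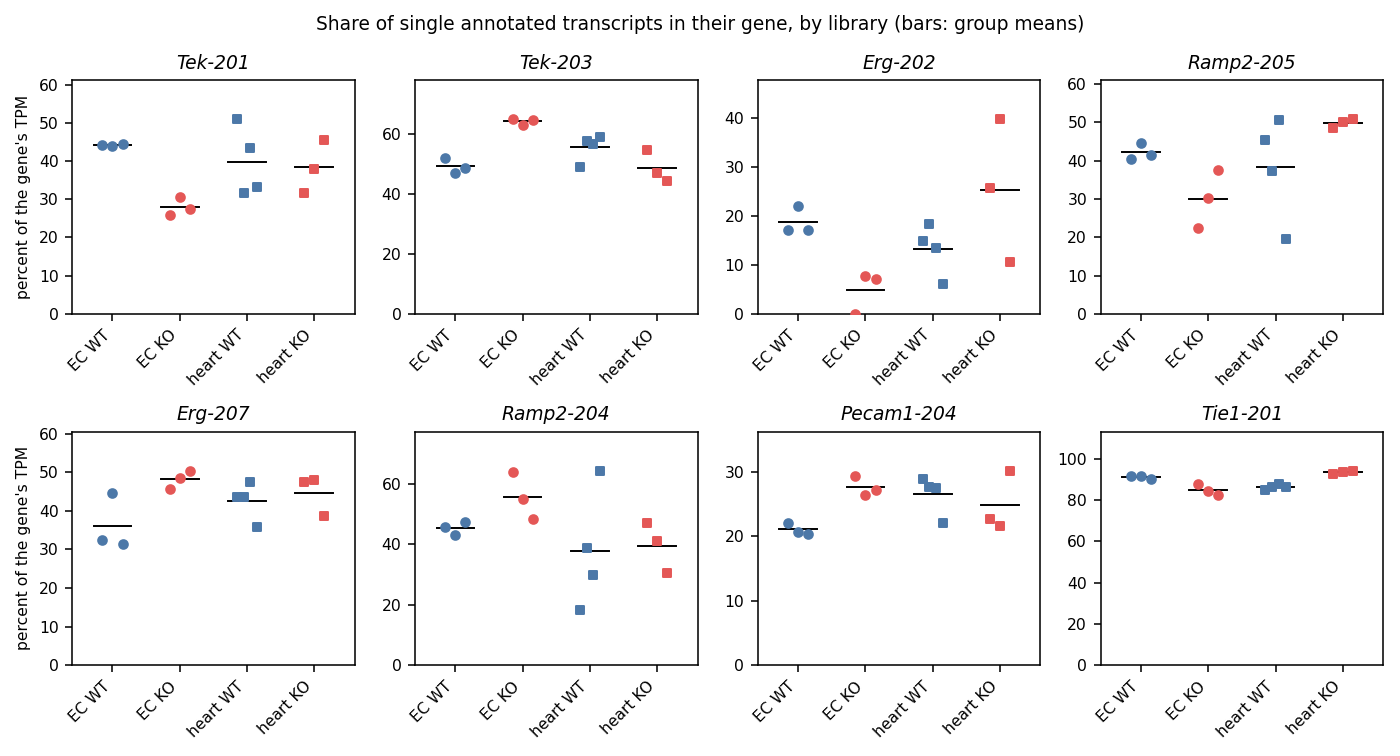
Share of a gene's TPM held by single annotated transcripts, in percent, in each EC and heart library by genotype (WT, Hmox2+/+, and KO, Hmox2-/-), with group means as bars. The 8 transcripts are those whose mean share differed most between genotypes in ECs. Tek-203 averages 49.2% in Hmox2+/+ and 64.2% in Hmox2-/- ECs, and Tek-201 44.2% and 28%.

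Since ERG and its relatives bind ETS motifs around GGAA, the sequence before the start of the genes was read for 3 that rose together in Hmox2-/- ECs (Tie1, Tek and Cldn5) and for Emcn, which did not. Windows of the 250 bases before the annotated start came from RefSeq on GRCm38.p6, a build other than that of the gene positions above, and 6 of the 10 genes were in the table. AGGAAG and CGGAAG, searched on both strands, stand in capitals as they read on the gene's strand.
Tie1, chr4:118489850-118490099, minus strand: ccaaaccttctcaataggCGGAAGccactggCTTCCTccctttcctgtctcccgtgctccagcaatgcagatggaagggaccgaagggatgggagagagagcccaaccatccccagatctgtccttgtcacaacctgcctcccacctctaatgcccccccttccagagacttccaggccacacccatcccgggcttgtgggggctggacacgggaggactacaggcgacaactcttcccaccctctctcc
Tek, chr4:94739039-94739288, plus strand: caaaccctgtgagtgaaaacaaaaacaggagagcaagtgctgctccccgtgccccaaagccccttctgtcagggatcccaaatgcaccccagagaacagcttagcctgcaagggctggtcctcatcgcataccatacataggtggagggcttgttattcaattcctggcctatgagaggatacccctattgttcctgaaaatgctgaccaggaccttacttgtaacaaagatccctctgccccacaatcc
Cldn5, chr16:18776597-18776846, plus strand: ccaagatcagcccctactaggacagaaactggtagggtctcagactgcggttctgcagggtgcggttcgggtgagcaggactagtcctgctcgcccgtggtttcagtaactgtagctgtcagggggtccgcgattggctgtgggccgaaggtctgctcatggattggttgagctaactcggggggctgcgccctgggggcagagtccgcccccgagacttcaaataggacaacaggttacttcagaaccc
Emcn, chr3:137340828-137341077, plus strand: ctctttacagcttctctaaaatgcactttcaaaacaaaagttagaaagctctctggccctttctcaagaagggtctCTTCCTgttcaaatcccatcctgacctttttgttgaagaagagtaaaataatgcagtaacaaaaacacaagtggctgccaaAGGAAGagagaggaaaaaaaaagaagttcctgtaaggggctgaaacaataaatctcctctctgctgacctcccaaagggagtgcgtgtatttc
The windows of Tie1 and Emcn held 2 matches each and those of Tek and Cldn5 none. Among the 6 genes, 4 had a match in a window (Eng and 1 of 3 Erg windows besides these). Counted by window, 4 of their 8 windows held a match, against 39.2% of all 32851 windows. Matches were thus found among genes that rose and among genes that did not, and no match says only that these letters are not in this window.

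The pathways in which these genes work were then read from lists of their partners. For the counts of called genes that follow, 10% of all genes were called higher and 8.06% lower in ECs. In hearts these shares were 17.2% and 16.2%. Of 7 angiopoietin and TIE pathway genes none was called in ECs (1 higher and 0 lower at an unadjusted p under 0.05, edgeR, and 1 higher and 0 lower with DESeq2), with a median log2 fold change of 0.33. The ligands Angpt1 (22.0 and 18.7 CPM, log2 -0.23, adjusted p = 0.555) and Angpt2 (13.6 and 17.1 CPM, log2 0.33, adjusted p = 0.499) did not pass while their receptor rose, and neither did Ptprb, the phosphatase of the TIE2 receptor (1165 and 1725 CPM, log2 0.57, adjusted p = 0.183). In hearts 1 of 6 tested was called, Angpt1, which fell from 61.9 ± 8.08 to 37.4 ± 5.20 CPM (log2 -0.73 ± 0.13, adjusted p = 0.00272, edgeR).

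The adrenomedullin receptor pair rose together in ECs. Calcrl, the receptor chain that RAMP2 accompanies, went from 65.1 ± 9.68 to 137 ± 22.3 CPM (log2 1.07 ± 0.16, adjusted p = 0.00808, edgeR), the only 1 of 5 tested pathway genes called there. Adm, the ligand, was at 9.90 and 10.3 CPM (log2 0.05, adjusted p = 0.913). The alternative partners Ramp1 (log2 -1.01, adjusted p = 0.0932) and Ramp3 (log2 -0.98, adjusted p = 0.285) did not pass. At an unadjusted p under 0.05 (edgeR) 1 of the 5 pathway genes was higher and 1 lower in ECs, and with DESeq2 1 and 1. In hearts, where Ramp2 also rose, Calcrl did not pass (log2 -0.16 ± 0.17, adjusted p = 0.472, edgeR), Adm rose from 3.45 to 5.54 CPM (log2 0.76, adjusted p = 0.0213) and Ramp1 fell from 13 to 2.86 CPM (log2 -2.20 ± 0.25, adjusted p = 1.84e-04).

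For the endoglin pathway, 1 of 15 tested genes was called in ECs, the BMP-binding protein Bmper, from 5.09 to 12.9 CPM (log2 1.34, adjusted p = 0.0127, edgeR). The BMP9 receptors Acvrl1 (log2 0.52, adjusted p = 0.0948) and Bmpr2 (log2 0.49, adjusted p = 0.0857) did not pass, and the BMP9 gene Gdf2 was under the count filter in both tissues. In hearts 5 of 15 fell, Tgfbr1 (log2 -0.72, adjusted p = 0.00343), Bmpr2 (log2 -0.59, adjusted p = 0.0190), Smad7 (log2 -0.53, adjusted p = 0.0113), Tgfbr3 (log2 -0.37, adjusted p = 0.0153) and Smad5 (log2 -0.31, adjusted p = 0.0320), and the target gene Id3 rose (log2 0.44, adjusted p = 0.0215). Smad5 and Id3 are named after their values were seen.

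The junction partners moved in both directions in ECs. Of 30 tested there, 3 rose and 4 fell, with a median log2 fold change of 0.14, where 10% and 8.06% of all genes did. At an unadjusted p under 0.05 (edgeR) 9 were higher and 5 lower, and with DESeq2 6 and 5. Those that rose were the tight junction genes Ocln (4.51 to 13.2 CPM, log2 1.55, adjusted p = 0.00631, edgeR) and Jam2 (107 to 240 CPM, log2 1.16, adjusted p = 0.00919, edgeR) and the arterial gap junction gene Gja5 (210 to 419 CPM, log2 1.00, adjusted p = 0.0327). Cgn (log2 -3.05, adjusted p = 0.0315), Nectin2 (log2 -1.0, adjusted p = 0.0315), Cdh2 (log2 -1.45, adjusted p = 0.0424) and Vcl (log2 -0.74, adjusted p = 0.0484) fell, of which Cdh2 is also used by cardiac and smooth muscle cells. Cgn was low, at 0.591 to 3.81 CPM in Hmox2+/+ ECs and 0.221 to 0.496 in Hmox2-/- ECs. The catenin Ctnnb1 (log2 0.34, adjusted p = 0.128) and the scaffold Tjp1 (log2 0.26, adjusted p = 0.279) did not pass. In hearts 1 of 29 tested rose, Ccm2 (log2 0.62, adjusted p = 0.00363), and 10 fell, among them Ctnna1 (595 to 388 CPM, log2 -0.62, adjusted p = 0.00185), Tjp1 (73.7 to 46.0 CPM, log2 -0.68, adjusted p = 0.00509) and Amotl2 (log2 -0.60, adjusted p = 0.00779). The catenins and Tjp1 are shared with cardiomyocytes, and the median of the list in hearts was -0.30.

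Among 15 endothelial transcription factors other than Erg, 4 rose in ECs and none fell (9 higher and 0 lower at an unadjusted p under 0.05, edgeR, and 8 higher and 0 lower with DESeq2), with a median log2 fold change of 0.64. They were the ETS factor Elk3 (46.9 to 74.8 CPM, log2 0.67 ± 0.11, adjusted p = 0.0109), Hhex (log2 0.76, adjusted p = 0.0291), Sox18 (log2 0.89, adjusted p = 0.0304) and the venous factor Nr2f2 (log2 0.92, adjusted p = 0.0464). Of the closest relatives of Erg, Fli1 (log2 0.50, adjusted p = 0.116) and Ets1 (log2 -0.31, adjusted p = 0.452) did not pass in ECs, nor did the arterial factor Sox17 (log2 0.65, adjusted p = 0.0721). In hearts, where Erg fell, 4 of the 15 fell, Ets2 (log2 -0.53, adjusted p = 0.00249), Bcl6b (log2 -0.83, adjusted p = 0.00312), Ets1 (log2 -0.52, adjusted p = 0.0119) and Nr2f2 (log2 -0.56, adjusted p = 0.0156). Elk3 rose there (log2 0.38, adjusted p = 0.0292).

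Of 30 wider endothelial markers, 9 rose and 3 fell in ECs (median log2 fold change 0.45), where 10% and 8.06% of all genes did. At an unadjusted p under 0.05 (edgeR) 12 were higher and 6 lower, and with DESeq2 12 and 5. In hearts 7 rose and 2 fell (median 0.10), where 17.2% and 16.2% of all genes did. There 8 were higher and 5 lower at an unadjusted p under 0.05 (edgeR), and 7 and 2 with DESeq2. In ECs those with the smallest adjusted p were the water channel Aqp1, which fell from 334 ± 22.5 to 115 ± 8.19 CPM (log2 -1.54 ± 0.13, adjusted p = 0.00130, edgeR), Adgrl4 (log2 0.73, adjusted p = 0.00640), Ecscr (log2 0.79, adjusted p = 0.00658) and the adhesion molecule Icam2 (log2 0.94, adjusted p = 0.0107). Kdr, the main VEGF receptor, fell from 18.4 to 12.3 CPM in ECs (log2 -0.58, adjusted p = 0.0233), in the direction opposite to Tek and Tie1, and Ablim3, named after its value was seen, fell too (log2 -0.83, adjusted p = 0.0204). Vwf, the von Willebrand factor gene, did not pass in ECs (log2 0.70, adjusted p = 0.0758). In hearts Vwf rose from 63.6 to 109 CPM (log2 0.78 ± 0.11, adjusted p = 7.81e-04, edgeR), together with Plvap (log2 0.90, adjusted p = 0.00408), Ly6c1 (log2 0.66, adjusted p = 0.00413) and Icam2 (log2 0.76, adjusted p = 0.00537), and Kdr did not pass (log2 0.09, adjusted p = 0.591). The 2 that fell in hearts, also named after their values were seen, were Shank3 (log2 -0.56, adjusted p = 0.00923) and Mmrn2 (log2 -0.40, adjusted p = 0.0146).

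Genes whose level followed the mean of the set most closely, by the Pearson correlation of log2 CPM centred within each tissue over the 13 libraries, were Adcy4 (0.967), Clec14a (0.960), Plpp1 (0.952), Thsd1 (0.951) and Ephx1 (0.950). Of the 10 genes themselves, Pecam1 (0.955), Esam (0.934) and Tek (0.911) lay closest to their common mean and Cldn5 (0.566), Erg (0.343) and Emcn (0.280) farthest. These values describe the 13 libraries, which share genotype and depth, and each gene of the set is part of the mean it is compared with.

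Other endothelial and blood markers moved beside the set. In ECs 4 of 7 lymphatic endothelial markers were higher and 0 lower (5 and 0 at an unadjusted p under 0.05 and with DESeq2), with a summed level of 60.8 to 96.1 CPM in Hmox2+/+ and 136 to 192 in Hmox2-/- libraries. Lyve1 averaged 25.3 and 61.6 CPM there, and Prox1 0.963 and 1.36. Macrophage markers were 4 of 9 higher, at 285 to 374 against 442 to 610 CPM, and platelet markers 1 of 5, at 18.2 to 33.9 against 34.1 to 59.0 CPM. Of the 5 platelet markers tested, 2 had a log2 fold change above 0 and 3 below, with a median of -0.50, opposite in direction to their sum. T cell, B cell and erythroid markers had 0 called in ECs (0 higher for each, and 0, 2 and 1 lower, at an unadjusted p under 0.05, edgeR, and 0, 1 and 1 lower with DESeq2). In hearts all 5 tested erythroid markers were higher, at 183 to 341 against 888 to 1457 CPM, as were 2 of 3 platelet markers (3.42 to 4.76 against 7.86 to 11.2 CPM), 4 of 9 macrophage markers (95.6 to 141 against 137 to 221 CPM) and 5 of 7 mesothelial markers (31.3 to 37.2 against 48.5 to 82.9 CPM). Brown fat markers had 2 of 5 higher in hearts, at 454 to 534 against 756 to 1631 CPM. Smooth muscle markers had 4 of 10 higher and 1 lower, at 1480 to 1722 against 1872 to 2444 CPM, with Tagln at a log2 fold change of 1.17 (adjusted p = 0.00151, edgeR). Lymphatic endothelial markers had 4 of 7 higher and 1 lower in hearts, at 131 to 182 against 134 to 162 CPM. Lyve1 was higher (log2 0.91, adjusted p = 0.00415, edgeR) and Prox1 lower (log2 -0.81, adjusted p = 0.0127, edgeR). Pericyte markers had 4 of 7 lower and 0 higher (4 and 0 also at an unadjusted p under 0.05 and with DESeq2), at 806 to 941 against 643 to 771 CPM. Platelets and leukocytes carry Pecam1 and platelets Esam. The part of these cells in the changes of the 10 genes was not tested.

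**Figure D5:**
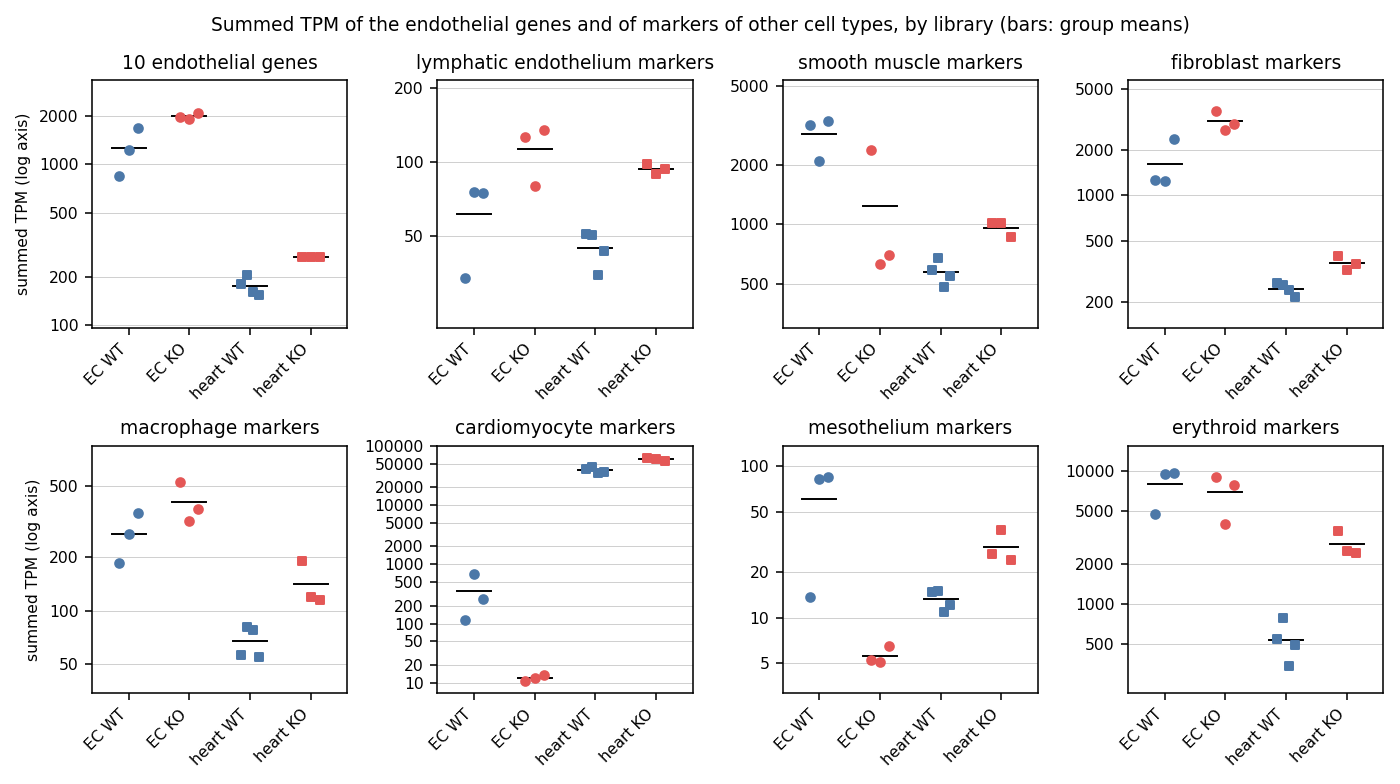
Summed TPM of the 10 endothelial genes and of marker lists of other cell types on log axes, 1 point per library, for ECs and hearts of Hmox2+/+ (WT) and Hmox2-/- (KO) mice, with group means as bars. In ECs the 10 genes sum to 854 to 1693 TPM in Hmox2+/+ and 1924 to 2086 TPM in Hmox2-/- libraries, and the smooth muscle sum of 1 Hmox2-/- library (2362 TPM) lies among the Hmox2+/+ libraries.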

How the data were processed

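RNA-seq libraries were 3 Hmox2+/+ and 3 Hmox2-/- aortic EC samples and 4 Hmox2+/+ and 3 Hmox2-/- hearts, prepared by oligo-dT selection. The authors deposited, per library, kallisto estimated counts, TPM and effective lengths for 118489 transcripts (kallisto 0.44.0, GENCODE M32 in the methods, and mm10 and GRCh38.p13 among the builds in the submitters' processing notes). Kallisto shares reads among similar transcripts, and its use of strand is not given in the sources used here.

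Here transcripts were matched by identifier to GENCODE M39 on GRCm39 (115140, or 97.2%, with 0.755% to 1.01% of counts unmatched), summed to genes and rounded. Groups came from the labels. Genes with enough counts (filterByExpr, minimum count 10) were scaled by trimmed means and tested with edgeR's quasi-likelihood test, per tissue for genotype and over all 13 libraries for tissue and the interaction, with Benjamini-Hochberg adjustment over all genes tested and a call at an adjusted p of at most 0.05. SE is the log2 fold change over the square root of F. Scripts were tested on simulated counts. Biological variation between replicates (edgeR coefficient) was 0.241 for ECs and 0.149 for hearts. Intervals were not computed, and depth error covers counting only. Versions were R 4.3.3, edgeR 4.0.16, DESeq2 1.42.0, Python 3.11.15, pandas 2.3.3, numpy 2.4.6 and matplotlib 3.10.9.

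The 10 genes and the gene lists were chosen with earlier results of these data known. Named beside the 10 genes and Hmox2 were, from each partner list, up to 4 called genes with the smallest adjusted p in a tissue and a set of 18 partners called or not, the first 3 genes of each marker list where useful, and the 5 genes most alike to the mean of the set. Others are said to be named after their values were seen. Alternatives were DESeq2, upper-quartile scaling, no filter, length-scaled counts, no mitochondrially encoded genes, all libraries in 1 fit, stricter thresholds, a replicate block, a Ddx3y term and each library left out. The Ddx3y-positive EC libraries alone, Ramp2 without shared transcripts and the ratio to Cdh5 were added after the data were seen. Promoter windows were from RefSeq on GRCm38.p6.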

Additional observations from a re-analysis of the deposited data

Results flagged for a closer look

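Of the 10 genes, 4 had a change with genotype that differed between ECs and hearts by the test of the difference itself (heart log2 fold change minus EC log2 fold change, all 13 libraries, edgeR). Ddx3y class, partly confounded with genotype in ECs, was not a term in that test. For Tie1 the difference was -0.98 (adjusted p = 0.00513), with log2 fold changes of 1.01 in ECs and -0.01 in hearts. For Tek it was -0.62 (adjusted p = 0.0257), with 0.74 in ECs and 0.08 in hearts. For Erg it was -0.68 (adjusted p = 0.0272), with 0.31 in ECs and -0.42 in hearts. For Emcn it was 1.13 (adjusted p = 0.0336), with -0.47 in ECs and 0.62 in hearts, and in Hmox2+/+ ECs Emcn varied from 35.3 to 101 CPM. Without Hmox2+/+ EC replicate 3 the difference for Emcn was 0.69 and its EC value -0.03.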

How the results depend on the processing

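Left out singly, the EC libraries gave 1 to 7 of the 10 genes called higher in ECs (6 with all), and 0 called lower in each case, and the hearts gave 3 to 5 higher (5 without Hmox2-/- heart replicate 3) and 0 to 1 lower (3 and 1 with all). The interaction count was 0 to 1 higher and 1 to 5 lower (1 and 3 with all), and the EC against heart count in Hmox2-/- mice 0 to 1 lower (0 with all, 1 without Hmox2+/+ EC replicate 2 or 3). Called transcripts ranged from 0 to 8 higher in ECs, and from 0 to 2 higher and 0 to 1 lower in hearts. At an adjusted p of at most 0.01 the counts were 0 higher in ECs, 2 higher and 0 lower in hearts, and 0 higher and 1 lower for the interaction. When a log2 fold change of 1 or more in size was also asked for, they were 1 in ECs and 0 higher and 0 lower in hearts. The Ddx3y term gave 0 in ECs. Erg was no longer called lower in hearts (0) with length-scaled counts or with all libraries in 1 fit, and in the latter Emcn did not pass in hearts (adjusted p = 0.0877, edgeR). Upper-quartile scaling gave 0 higher for the interaction, and in EC against heart it moved the median log2 difference of all genes from 0.05 to 0.19 in Hmox2+/+ and from 0.11 to 0.35 in Hmox2-/- mice, with all 10 genes higher in the former. DESeq2 called 13 transcripts higher in ECs and 5 higher and 3 lower in hearts. The causes were not tested. The summed TPM ratio of Hmox2-/- to Hmox2+/+ hearts was 1.51, and it was 0.941, with overlapping groups, without mitochondrially encoded genes (1.59 and 1.80 in ECs).

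Deviations from the group means of same-numbered Hmox2+/+ and Hmox2-/- samples correlated at 0.181, 0.0400 and 0.0872 in ECs and at -0.0335, 0.0772 and 0.0370 in hearts. These are different mice, so the values cannot show whether same-numbered ECs and hearts share a mouse. That was not tested, and the main fit of all libraries treats ECs and hearts as independent. For the interaction, the block joined same-numbered ECs and hearts of a genotype. With the replicate block 5 genes were higher in ECs (Pecam1 not, adjusted p = 0.0656), 2 higher and 0 lower in hearts (Ramp2, adjusted p = 0.0609, and Erg, adjusted p = 0.0544, lost, edgeR), 0 higher and 3 lower for the interaction, and 0 transcripts in either tissue.

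Of the members' fold changes under all alternatives, with genotype, tissue and interaction tests pooled, 850 kept their side of the threshold, 79 no longer passed and 21 newly passed. The sign turned in 9, all near 0 and called neither before nor after (Eng, Tie1, Cldn5 and Cdh5), and 0 called values turned. The side was judged by adjusted p alone, also where a log2 fold change of 1 was asked for. The EC calls were less stable than the pooled counts. Pecam1 lost its EC call in 9 of 18 alternatives, Tek, Esam and Ramp2 in 7 each, Cldn5 in 6 and Tie1 in 4. Each of these counts, and the pooled ones, includes the fit of the Ddx3y-positive EC libraries alone. That fit holds only 1 Hmox2-/- library, so a lost call there carries no weight. Each group held 3 or 4 samples, heart Hmox2+/+ replicate 1 had the lowest depth, and reads of Ramp2, Pecam1, Tie1, Eng, Erg and Emcn are to some extent shared with other genes.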
